A study of Fundulus heteroclitus with 36 samples.

Results

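Transcripts of 4 enzymes of sterol synthesis, hmgcra, sqlea, CYP51 and msmo1, and of the lipid synthesis regulator mid1ip1l were followed in 36 embryo brains of Fundulus heteroclitus, the Atlantic killifish. The 5 genes were chosen by name from a RefSeq gene table, where CYP51 is a synonym of LOC105935076, and they are 5 of the 31637 genes to which the measured transcripts belong. The choice was made with earlier results of these libraries known, so that a difference between groups in these genes is described here and was not predicted. Whole brains had been taken at 17 days post fertilization and sequenced as RNA, 1 brain per library.

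The embryos fell into 6 groups of 6 and came from 2 populations, that of New Bedford Harbor (NBH) and that of Scorton Creek (SCO). NBH PCB40 and NBH PCB400 embryos were exposed in the water to PCB126, a dioxin-like polychlorinated biphenyl, at 40 and 400 ng/L from day 1 to day 7, and NBH Control embryos were not exposed. SCO PCB40 embryos received the 40 ng/L dose over the same days. SCO Hg Fed embryos were not dosed themselves: their parents had eaten a tuna diet high in methylmercury. The parents of all other groups, SCO Control and the PCB126 groups included, had eaten a salmon diet low in methylmercury. No SCO group at 400 ng/L was analysed here. The labels do not say which embryos shared parents, so p-values measure the spread between these embryos, and each value is 1 whole brain with all its cell types.

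Vertebrate cells make cholesterol from acetyl-CoA through the mevalonate pathway to squalene and lanosterol, and then through a series of demethylations and reductions. In mammals the transcription factor SREBP2 switches the genes of this route on together when membrane sterol is low, and the brain makes its own cholesterol behind the blood-brain barrier, much of it for myelin and synaptic membranes. Hmgcra encodes HMG-CoA reductase, the main regulated step of the mevalonate part. Sqlea encodes squalene epoxidase, the first oxygen-requiring step, CYP51 the lanosterol demethylase and msmo1 the methylsterol monooxygenase that acts after it. Mid1ip1l is named for MID1 interacting protein 1, which in mouse binds acetyl-CoA carboxylase, the entry enzyme of fatty acid synthesis, and raises its activity.

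The libraries held between 38.5 and 66.4 M estimated reads, with a median of 52.85 M. Levels are in CPM, counts scaled to a common library total with TMM, unless TPM, which also divide by transcript length, are named. All 5 genes passed the filter on low counts that left 23292 genes. A gene was called where edgeR's quasi-likelihood test gave a Benjamini-Hochberg adjusted p under 0.05 over those 23292 genes. Per length, mid1ip1l was by far the most abundant of the 5, at 282.4 to 765.4 TPM over the 36 brains. Msmo1 lay at 9.18 to 45.1 TPM, CYP51 at 3.28 to 15.8 TPM, hmgcra at 2.28 to 13.8 TPM and sqlea at 0.136 to 3.28 TPM. Sqlea rested on 19 to 505 estimated reads per library, and mid1ip1l on 11915 to 40940. Hmgcra, sqlea, CYP51 and mid1ip1l were each measured as 1 transcript and msmo1 as 2, of 1588 and 1574 bases. The 1588-base form took a median of 6.6% of the msmo1 reads, but 75.0% in NBH PCB400 replicate 2. How reads were divided between such near-identical forms, or between these genes and unnamed paralogs, could not be checked.

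**Figure D1:**
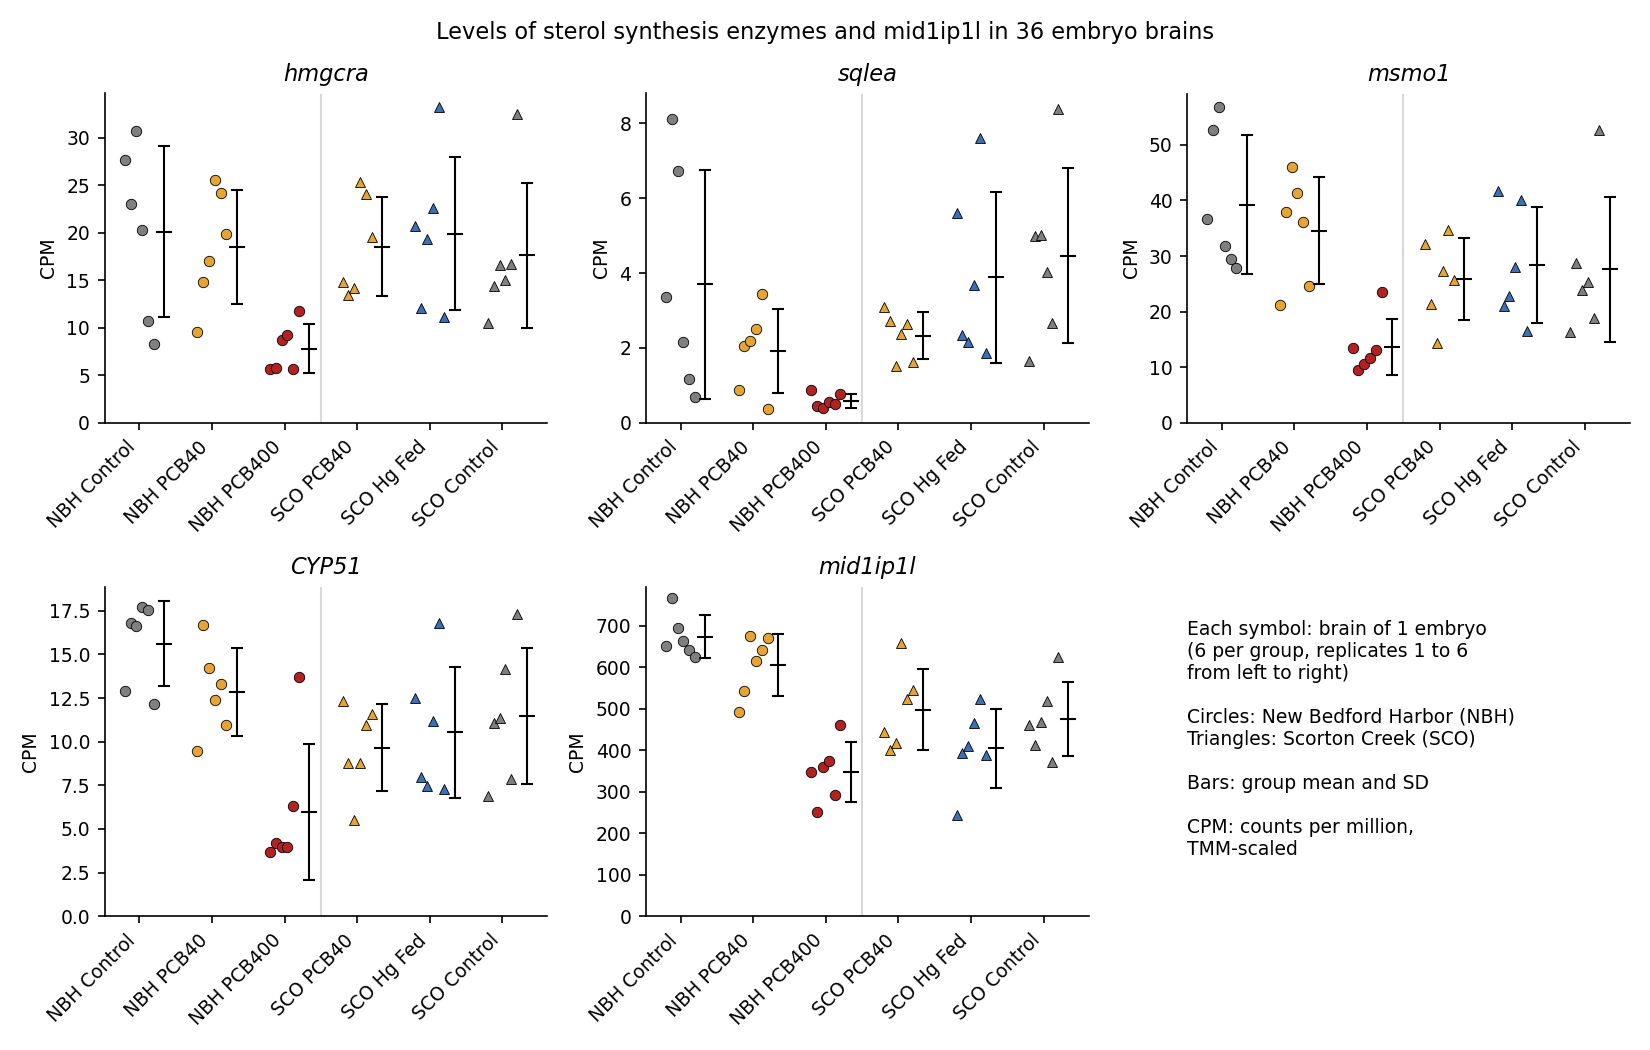
Levels of the 5 genes in each of the 36 brains, in CPM on a linear axis for each gene, by group, with the group mean and SD (n = 6) as bars. The NBH PCB400 group has the lowest mean in each panel, with brains at 5.64 to 11.8 CPM for hmgcra and 251.5 to 460.2 CPM for mid1ip1l, and 1 of them, replicate 6, stands above the other 5 in every panel but that of sqlea.

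What did the higher dose of PCB126 do to these genes in New Bedford Harbor brains? All 5 were lower in NBH PCB400 than in NBH Control, and all 5 passed the test. The fall was 6.3-fold for sqlea, 2.88-fold for msmo1, 2.61-fold for CYP51, 2.58-fold for hmgcra and 1.94-fold for mid1ip1l. Over all 23292 genes tested, 2.31% were called lower and 1.43% higher in this comparison. In bulk tissue, fewer cells that express a gene and less RNA per cell cannot be told apart.

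Hmgcra ranged from 5.64 CPM in the lowest NBH PCB400 brain to 11.8 CPM in the highest, with a median of 7.22, against 8.33 to 30.8 CPM in NBH Control with a median of 21.7. The NBH PCB400 embryos were low as a group, 3 of 6 below every control, but NBH Control replicates 5 and 6, at 10.7 and 8.33 CPM, lay among them. The log2 fold change was -1.37 (SE 0.31, 95% interval -2.001 to -0.73, edgeR adjusted p 0.0147). NBH Control was itself widely spread in this gene, with an SD of 9.01 CPM around a mean of 20.1 CPM, where NBH PCB400 had a mean of 7.80 CPM and an SD of 2.55.

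Sqlea had the largest fold difference and the lowest levels. Its levels ran from 0.401 to 0.872 CPM in NBH PCB400, with a median of 0.515, against 0.692 to 8.11 CPM in NBH Control, with a median of 2.75. The controls spanned 11.7-fold and the NBH PCB400 brains 2.17-fold, and 4 of 6 NBH PCB400 brains lay below every control. The log2 fold change was -2.66 (SE 0.52, 95% interval -3.71 to -1.60, edgeR adjusted p 0.0057). The NBH PCB400 values rest on 20 to 41 estimated reads per library, so that their counting error is larger than that of the other genes.

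CYP51 fell to a median of 4.09 CPM in NBH PCB400 (lowest 3.702, highest 13.7), against 16.7 CPM in NBH Control (lowest 12.2, highest 17.7). In 5 of 6 NBH PCB400 brains the gene was below every control, at 6.33 CPM or less. Replicate 6 of that group, at 13.7 CPM, lay above 2 of the 6 controls. The log2 fold change was -1.39 (SE 0.28, 95% interval -1.95 to -0.82, edgeR adjusted p 0.00636).

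The methylsterol monooxygenase gene msmo1 had 9.48 to 23.4 CPM in NBH PCB400, with a median of 12.3, against 27.8 to 56.8 CPM in NBH Control, with a median of 34.2. The groups did not overlap. Its log2 fold change was -1.53 (SE 0.28, 95% interval -2.10 to -0.95, edgeR adjusted p 0.00358). Both msmo1 transcript forms are summed in these values.

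Mid1ip1l, the most abundant and least variable of the 5, averaged 347.2 ± 72.0 CPM in NBH PCB400 and 673.5 ± 51.5 CPM in NBH Control (SD, n = 6 each). The NBH PCB400 brains ran from 251.5 to 460.2 CPM and the controls from 625.0 to 766.9 CPM, with no overlap. Its change was the smallest in size of the 5 and the best resolved, at -0.96 on the log2 scale (SE 0.15, 95% interval -1.27 to -0.65, edgeR adjusted p 6.83e-04), and by p it ranked 13 among the 23292 genes. Msmo1 ranked 31, sqlea 48, CYP51 63 and hmgcra 158. A second gene of this name, mid1ip1a, chosen after its values were seen, had 1.34 ± 0.76 CPM in NBH PCB400 and 3.29 ± 1.69 CPM in NBH Control (SD, n = 6 each) and did not pass (edgeR log2 fold change -1.298, SE 0.39, adjusted p 0.0524).

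NBH PCB400 replicate 6 was the highest of its group in hmgcra, msmo1, CYP51 and mid1ip1l. Its level of CYP1A, the cytochrome P450 that PCB126 induces through the aryl hydrocarbon receptor, was 44.5 CPM, where the other 5 NBH PCB400 brains had 357.5 to 608.5 CPM and NBH Control brains 2.72 to 11.8 CPM. The same library had the lowest total of all 36, at 38.5 M reads, the highest length slope of its group, at 0.163, and a posterior hox score of 2.44, where the other 5 had -2.58 to -1.63. Their part in its levels was not tested. Without that brain all 5 genes were still called, with log2 fold changes from -2.74 to -1.05. Over the 36 brains, with group means removed, CYP1A and the 5 genes correlated at Pearson r from -0.39 to 0.2 and Spearman rho from -0.323 to 0.139, and none of the 5 passed (permutation test, smallest adjusted p 0.252 by Pearson over 45 correlations with library measures). Some summed markers of cell types and tissues also differed between NBH PCB400 and NBH Control. These are RNA levels, so fewer cells and less RNA per cell cannot be told apart here either. The summed neuron markers came to 4877 to 5960 CPM in NBH PCB400 and 6623 to 7123 CPM in NBH Control, with 7 of 9 markers lower and 0 at a count of 0. The summed oligodendrocyte markers came to 1220 to 1991 CPM in NBH PCB400 and 1694 to 2380 CPM in NBH Control, with 6 of 8 lower and 0 at a count of 0. The neuron sums of NBH PCB400 overlapped those of NBH PCB40 (4914 to 6729 CPM) and SCO Control (4930 to 6919 CPM). Against NBH PCB40, 4 of 9 neuron and 4 of 8 oligodendrocyte markers were lower in NBH PCB400, and both sums overlapped. Posterior hox genes, markers of spinal cord and hindmost brain tissue, summed to 0.306 to 29.2 CPM in NBH PCB400 with a median of 0.682, and to 6.99 to 30.9 CPM in NBH Control with a median of 22.2, with 5 of 8 lower and hoxa9b and hoxc10a at 0 in both. Skeletal muscle markers summed to 27.4 to 174.0 CPM in NBH PCB400 and 19.3 to 109.8 CPM in NBH Control, with 9 of 9 higher. Pituitary markers summed to 0.188 to 313.3 CPM in NBH PCB400 and 0.72 to 500.2 CPM in NBH Control, with 3 of 7 lower. Of the fits with marker scores, only that with the muscle, pituitary and posterior hox scores together was planned. With neuron and oligodendrocyte scores as covariates all 5 genes were still called, in a fit that called 2120 of all genes. With the posterior hox score alone 3 were called, not hmgcra (-1.28, adjusted p 0.103) and CYP51 (-1.18, adjusted p 0.059), where 57 of all genes were. With the muscle, pituitary and posterior hox scores together only mid1ip1l was called, and the log2 fold changes of the others ran from -2.30 to -1.13 (adjusted p 0.0781 to 0.0986). Over all genes that model called 48, against 870 in the model without scores. How far these differences bear on the 5 genes beyond those fits was not tested.

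Libraries also differed in how expression ran with transcript length: the slope per library averaged 0.027 in NBH PCB400 and -0.086 in NBH Control. With this slope as a covariate 4 of the 5 genes were called, and hmgcra, with a log2 fold change of -1.03, was not (adjusted p 0.073). Hmgcra also missed the threshold without NBH PCB400 replicate 2 (adjusted p 0.0509) or without replicate 5 (adjusted p 0.0501).

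**Figure D2:**
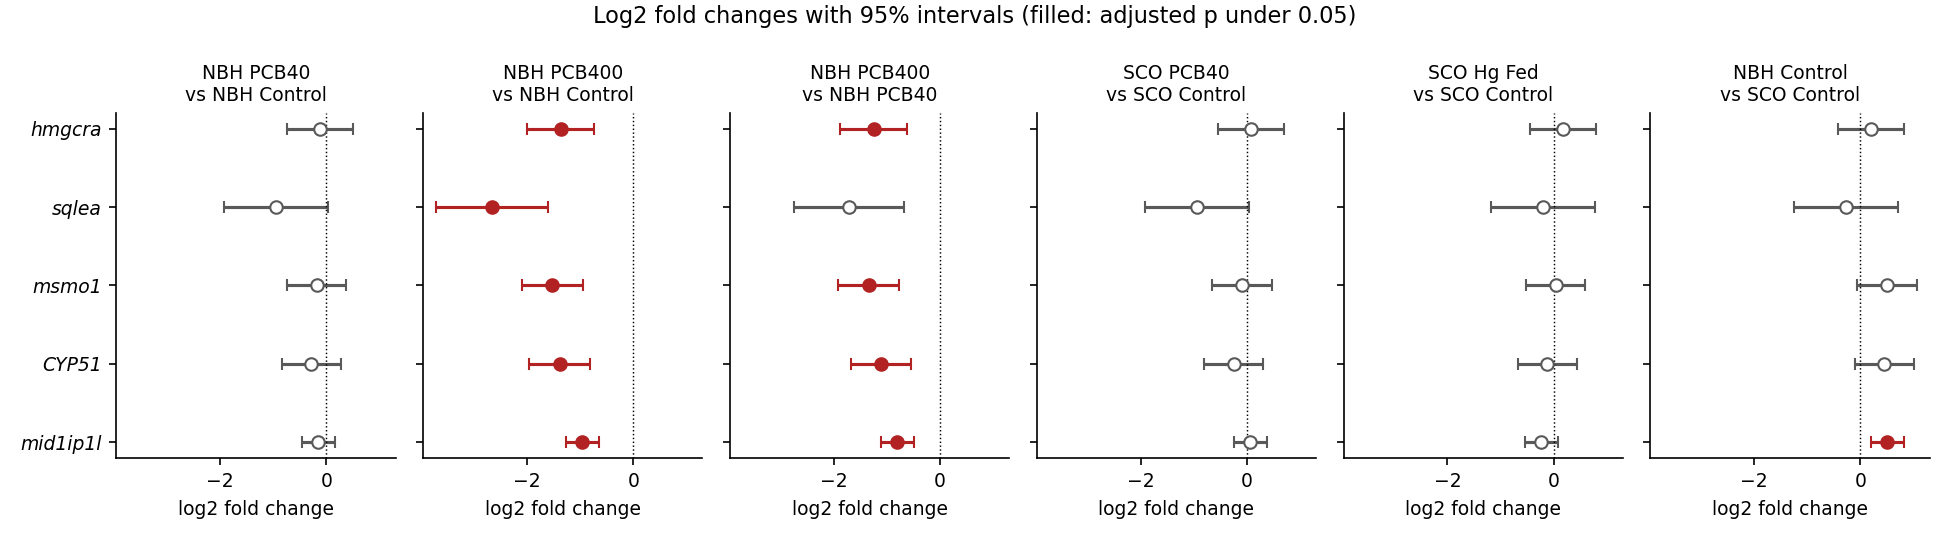
Log2 fold change of the 5 genes in 6 comparisons of 2 groups, with 95% intervals on 30 degrees of freedom; filled red symbols passed an adjusted p of 0.05. The 5 genes were called lower in NBH PCB400 than in NBH Control, from -2.66 for sqlea to -0.96 for mid1ip1l, and every interval of SCO PCB40 and SCO Hg Fed against SCO Control includes 0.

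Was the fall already present at the lower dose? All 5 genes had negative log2 fold changes in NBH PCB40 against NBH Control, but none passed the test (edgeR adjusted p above 0.99 for each). The comparison shares the NBH Control brains with that of the higher dose. No gene at all was called in it, 0% of 23292, with 713 at an unadjusted p under 0.05 and 18 called by DESeq2. Sqlea had the largest value, -0.95 (95% interval -1.94 to 0.04), at 1.91 ± 1.12 CPM in NBH PCB40 and 3.7 ± 3.06 CPM in NBH Control (SD, n = 6 each). Its lowest level of all 36 brains, 0.360 CPM, was that of NBH PCB40 replicate 6. Log2 values of the others were -0.28 for CYP51 (95% interval -0.84 to 0.27), -0.18 for msmo1 (-0.74 to 0.38), -0.15 for mid1ip1l (-0.46 to 0.16) and -0.12 for hmgcra (-0.74 to 0.50). For each of the 5 genes the lower end of the interval lay above the log2 fold change estimated at the higher dose. Those estimates have intervals of their own, which overlapped the intervals here for sqlea, CYP51 and hmgcra. The doses are compared directly below.

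Between the doses, 4 of the 5 genes were called lower in NBH PCB400 than in NBH PCB40, where 2.41% of all genes were called lower and 1.12% higher. This comparison shares the NBH PCB400 brains with that of NBH PCB400 against NBH Control. It shares the NBH PCB40 brains with that of NBH PCB40 against NBH Control, so it leans on the same embryos as both. Mid1ip1l was at 251.5 to 460.2 CPM in NBH PCB400, against 491.3 to 673.9 CPM in NBH PCB40, without overlap (log2 fold change -0.80, SE 0.15, edgeR adjusted p 0.00833). Msmo1 was at 9.48 to 23.4 CPM in NBH PCB400, against 21.3 to 45.99 CPM in NBH PCB40, where 5 of 6 lay below every brain of the lower dose (-1.34, SE 0.28, adjusted p 0.0122). Hmgcra (-1.25, SE 0.31, adjusted p 0.0249) and CYP51 (-1.104, SE 0.28, adjusted p 0.0254) were below all NBH PCB40 brains in 5 of 6 brains each. Sqlea was 3.26-fold lower (-1.71, SE 0.51) and missed the threshold by edgeR (adjusted p 0.0514). By DESeq2 its adjusted p was 0.0119. For sqlea 1 NBH PCB40 brain, replicate 6 at 0.360 CPM, lay below every NBH PCB400 brain. That brain had 7.14 CPM of CYP1A, where the other NBH PCB40 brains had 20.7 to 149.2 CPM and NBH Control brains 2.72 to 11.8 CPM. Without it sqlea was called (-1.92, edgeR adjusted p 0.0359), as it was in 3 of the 12 fits that left out 1 brain. The part of its CYP1A level was not tested. The count of 4 fell to 2 without NBH PCB40 replicate 4 or 5, or without NBH PCB400 replicate 2 or 5.

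In Scorton Creek brains none of the 5 genes was called between SCO PCB40 and SCO Control, where 2.67% of all genes were. By edgeR none of the 5 had an unadjusted p under 0.05, and DESeq2 called 0. Sqlea again had the largest value (log2 fold change -0.94, SE 0.48, 95% interval -1.92 to 0.05, edgeR adjusted p 0.303), with 1.52 to 3.09 CPM in SCO PCB40, median 2.51, against 1.65 to 8.39 CPM in SCO Control, median 4.50. The SCO PCB40 brains stayed close together, and 2 of 6 were below every control. Mid1ip1l averaged 497.8 ± 97.9 CPM in SCO PCB40 and 475.5 ± 88.5 CPM in SCO Control (SD, n = 6 each), a log2 difference of 0.07 (95% interval -0.24 to 0.37). Hmgcra (0.07, 95% interval -0.55 to 0.69), msmo1 (-0.09, -0.65 to 0.47) and CYP51 (-0.25, -0.80 to 0.31) overlapped broadly between the groups. The response to 40 ng/L was also compared between the populations: NBH minus SCO differences of the log2 fold change ran from -0.22 for mid1ip1l (SE 0.21) to -0.01 for sqlea (SE 0.67), none called (edgeR adjusted p 0.791 to 0.997), where 0.0172% of all genes were called.

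The embryos of parents on the tuna diet did not differ past the test in any of the 5 genes. No gene was called between SCO Hg Fed and SCO Control, 0% of 23292, with 1270 at an unadjusted p under 0.05 and 77 called by DESeq2. Mid1ip1l had the largest value, with 404.1 ± 94.1 CPM in SCO Hg Fed and 475.5 ± 88.5 CPM in SCO Control (SD, n = 6 each; log2 fold change -0.23, 95% interval -0.54 to 0.07). The lowest brain for this gene in the whole series, at 242.9 CPM, was SCO Hg Fed replicate 1. The enzymes lay at -0.20 for sqlea (95% interval -1.17 to 0.77), -0.12 for CYP51 (-0.68 to 0.43), 0.04 for msmo1 (-0.52 to 0.60) and 0.17 for hmgcra (-0.45 to 0.79). Their levels in SCO Hg Fed were widely spread, from 11.2 to 33.3 CPM for hmgcra and from 1.86 to 7.60 CPM for sqlea.

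Did the populations differ without exposure? Mid1ip1l was 1.42-fold higher in NBH Control than in SCO Control and was called (log2 fold change 0.50, SE 0.15, edgeR adjusted p 0.0222), with 625.0 to 766.9 CPM in NBH Control, median 656.4, and 370.6 to 624.1 CPM in SCO Control, median 464.3. The groups did not overlap, although the lowest NBH Control brain and the highest SCO Control brain nearly met. The 4 enzymes were not called, with msmo1 at 0.50 (SE 0.28), CYP51 at 0.45 (SE 0.27), hmgcra at 0.19 (SE 0.30) and sqlea at -0.27 (SE 0.48), and adjusted p from 0.199 to 0.728. In this comparison 7.33% of all genes were called higher and 10% lower. The length slope averaged -0.086 in NBH Control and 0.093 in SCO Control, and the call of mid1ip1l ended once the slope was a covariate (0.29, adjusted p 0.348), the length trend was removed (0.30, adjusted p 0.144) or tissue scores were added, and also without SCO Control replicate 2 or 5 (adjusted p 0.0506 without replicate 2, 0.0565 without replicate 5).

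Ranked by mean CPM over the 6 groups, NBH PCB400 came last in all 5 genes. Of the 25 steps between groups next to each other in these orders, 5 were larger than the larger SD of the neighbours. This measure is not a test, and the ranges of the neighbours overlapped at every step. For hmgcra 5 groups lay within 17.6 to 20.1 CPM and did not differ beyond their spread, and then came NBH PCB400 at 7.80 CPM. Sqlea ran from SCO Control at 4.46 CPM through SCO Hg Fed, NBH Control, SCO PCB40 and NBH PCB40 to NBH PCB400 at 0.585 CPM, with only the step into NBH PCB400 above the spread. The order of msmo1 was NBH Control, NBH PCB40, SCO Hg Fed, SCO Control, SCO PCB40 and NBH PCB400, and again only the last step, into NBH PCB400 at 13.6 CPM below SCO PCB40 at 25.9 CPM, exceeded the SD. CYP51 and mid1ip1l began with NBH Control and NBH PCB40. In CYP51 the step between those 2, 15.6 and 12.8 CPM, was above the SD, and that between NBH PCB400 at 5.98 CPM and SCO PCB40 at 9.66 CPM was not. Between NBH PCB40 and NBH Control CYP51 was not called (edgeR unadjusted p 0.305). In mid1ip1l the step between NBH PCB40 at 605.6 CPM and SCO PCB40 at 497.8 CPM was above the SD, and NBH PCB400 at 347.2 CPM was within the spread of SCO Hg Fed at 404.1 CPM.

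How far did the fall at the higher dose extend along the pathway? A list of 24 sterol synthesis genes had 19 matches in the RefSeq table, all of them tested; hmgcrb, sqleb, lss, nsdhl and ebp had no match by name. In NBH PCB400 against NBH Control 16 of the 19 had negative log2 fold changes, with a median of -0.78, against a median of 0.05 over all 23292 genes. Besides the 4 enzymes above, 4 of the 15 others were called lower, against 2.31% of all genes, and none higher, and the median of these 15 was -0.64. The values of 3 of these 4 are given here. Tm7sf2, the sterol reductase that follows CYP51, had 4.13 ± 0.63 CPM in NBH PCB400 and 9.60 ± 1.57 CPM in NBH Control (SD, n = 6 each; edgeR log2 fold change -1.22, adjusted p 0.00382). Hsd17b7, the ketosteroid reductase of the demethylation steps with msmo1, had 0.827 ± 0.353 CPM in NBH PCB400 and 2.04 ± 0.82 CPM in NBH Control (-1.299, adjusted p 0.0177). Acat2, the thiolase that joins acetyl-CoA units before HMG-CoA is made, had 29.6 ± 3.98 CPM in NBH PCB400 and 46.1 ± 12.0 CPM in NBH Control (-0.64, adjusted p 0.0246). Tm7sf2 was called in all 12 fits that left out 1 brain, while hsd17b7 was lost without NBH PCB400 replicate 2 or 5, and acat2 without NBH Control replicate 2 or 3 or NBH PCB400 replicate 2 or 3. None of the 3 was called with the muscle, pituitary and posterior hox scores as covariates, and tm7sf2 was with the hox score alone (adjusted p 0.0415). With the length slope as a covariate acat2 was not called (-0.477, adjusted p 0.0918), and tm7sf2 (adjusted p 0.0165) and hsd17b7 (adjusted p 0.0443) were.

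The other 11 were not called by edgeR, although DESeq2 called idi1, fdps and mvda as well. Between hmgcra and sqlea in the pathway, the farnesyl diphosphate synthase gene fdps stood at -0.83 (adjusted p 0.0685), the mevalonate decarboxylase gene mvda at -0.78 (0.0737) and the isomerase gene idi1 at -0.40 (0.068), while the mevalonate kinase genes mvk, at 0.02, and pmvk, at 0.44, and the squalene synthase gene fdft1, at 0.21, had positive values. The late steps sc5d (-0.74) and dhcr7 (-0.50), the HMG-CoA synthase gene hmgcs1 (-0.82), lbr (-0.30) and erg28 (-0.13) had negative values with adjusted p from 0.13 to 0.677. In NBH PCB400 against NBH PCB40, tm7sf2 (-1.16, adjusted p 0.00848) and hsd17b7 (-1.11, adjusted p 0.0371) were again called lower. They were the only calls among the 15, where 2.41% of all genes were called lower. The call of hsd17b7 was lost in 9 of 12 fits that left out 1 brain. By edgeR 0 of the 15 were called in NBH PCB40 against NBH Control, SCO PCB40 against SCO Control and SCO Hg Fed against SCO Control. Over all genes 0%, 2.67% and 0% were called, in that order. At an unadjusted p under 0.05 were 2, 2 and 0 of the 15, where 3.06%, 17.9% and 5.45% of all genes were. In NBH Control against SCO Control 2 of the 15 were called higher, erg28 (0.47, adjusted p 0.0324) among them, where 7.33% of all genes were. The call of erg28 ended with the length slope as a covariate (adjusted p 0.54) and in 7 of 12 fits that left out 1 brain.

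**Figure D3:**
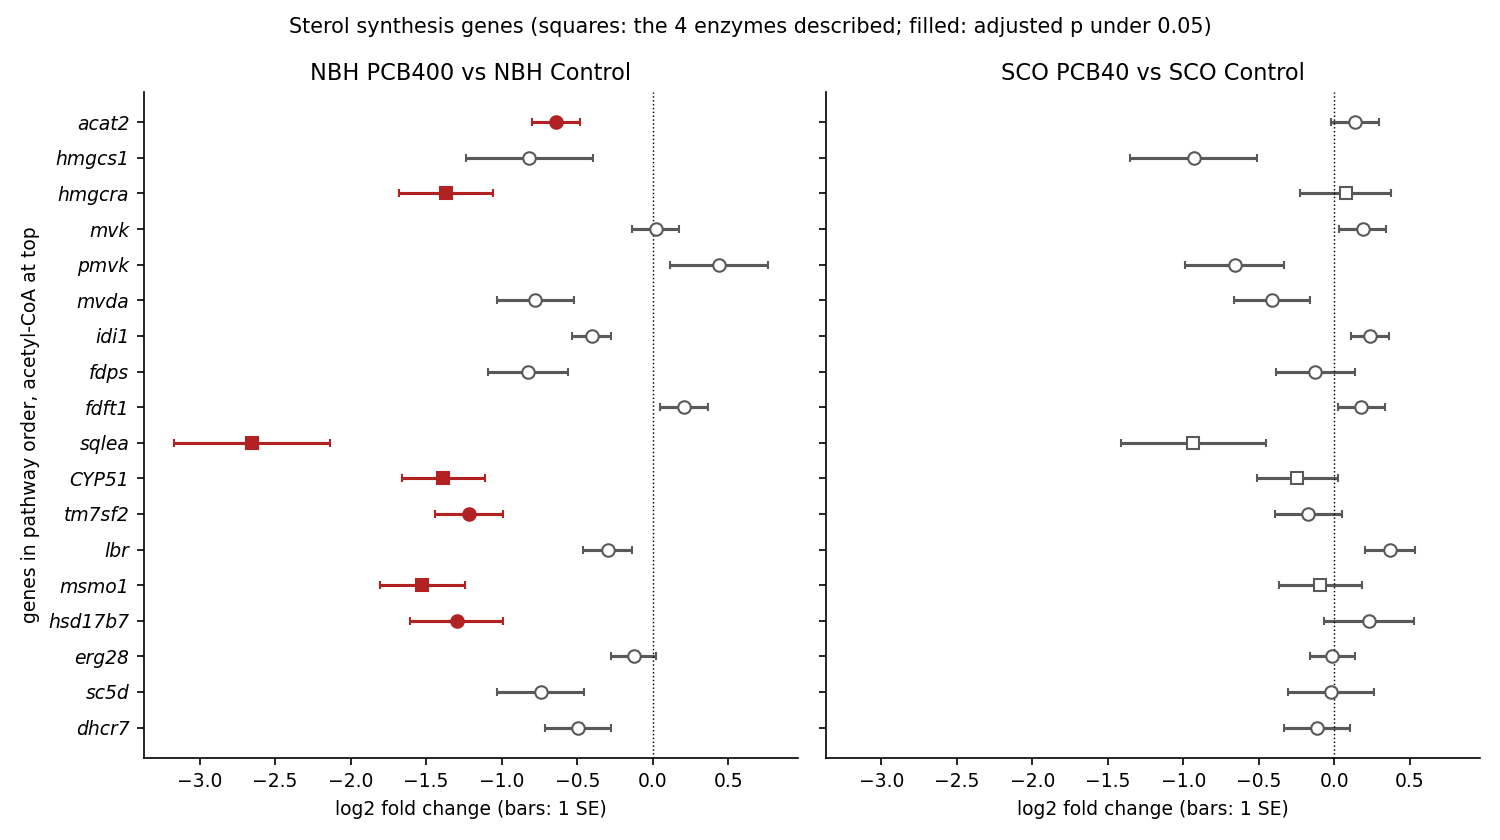
Log2 fold change with 1 SE of 18 sterol synthesis genes in pathway order, from acetyl-CoA at the top, in NBH PCB400 against NBH Control on the left and in SCO PCB40 against SCO Control on the right. On the left 15 of the 18 values are below 0 and the 7 filled ones were called, and on the right none was called.

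Among genes that control sterol levels 1 was called, higher, where 1.43% of all genes were called higher. Of the 10 matched regulators of a list of 15, 5 had positive and 5 negative log2 fold changes in NBH PCB400 against NBH Control. The called one was mylipa. It encodes a ubiquitin ligase that in mammals marks the LDL receptor for breakdown, and it was 2.46-fold higher, at 13.1 ± 4.56 CPM in NBH PCB400 and 5.34 ± 1.47 CPM in NBH Control (SD, n = 6 each; edgeR log2 fold change 1.297, SE 0.25, adjusted p 0.0047). It was also higher in NBH PCB400 than in NBH PCB40 (1.098, SE 0.25, adjusted p 0.0161), a call lost without NBH PCB40 replicate 5 (adjusted p 0.0568) or NBH PCB400 replicate 2 (adjusted p 0.0599). With the muscle, pituitary and posterior hox scores as covariates its value against NBH Control was 1.22 and no longer called (adjusted p 0.0748). The gene of SREBP2, srebf2, stood at 0.27 (SE 0.33, adjusted p 0.683), and insig1, whose product holds SREBP in the endoplasmic reticulum, at -0.63 (SE 0.24, adjusted p 0.13). Of 10 matched genes of sterol uptake and transport 8 were tested, and edgeR and DESeq2 called 0 of them between NBH PCB400 and NBH Control, with 3 at an unadjusted p under 0.05, where 20.6% of all genes were. Under other settings or without 1 library at most 2 were called lower there. In NBH PCB400 against NBH PCB40 edgeR called 2 of the 8 lower, where 2.41% of all genes were called lower. For 1 of these the group means were 0.0178 and 0.44 CPM, near 0. The calls were lost in 3 and 8 of the 12 fits that left out 1 brain.

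Mid1ip1l belongs to a list of fatty acid synthesis genes, of which 17 others were tested. In NBH PCB400 against NBH Control 3 of the 17 were called lower and 1 higher, against 2.31% and 1.43% of all genes, with a median log2 fold change of -0.17. Fads2 (-1.77, SE 0.51, edgeR adjusted p 0.0459) and elovl5 (-1.0, SE 0.27, adjusted p 0.0331), a desaturase and an elongase of long polyunsaturated fatty acids, and slc25a1b (-0.39, SE 0.11, adjusted p 0.0375), a mitochondrial citrate carrier, were lower. Lpin1, a phosphatidate phosphatase, was higher (0.95, SE 0.26, adjusted p 0.0362). The acetyl-CoA carboxylase gene acaca, on whose protein the mouse counterpart of mid1ip1l acts, stood at -0.49 (SE 0.16, adjusted p 0.0746) and the fatty acid synthase gene fasn at -0.75 (SE 0.26, adjusted p 0.0855). The calls of lpin1, slc25a1b, elovl5 and fads2 were lost in 7, 8, 9 and 11 of the 12 fits that left out 1 brain, in that order. All 4 calls also ended with the muscle, pituitary and posterior hox scores as covariates (adjusted p 0.149 to 0.241) and with the hox score alone (0.14 to 0.185), and those of fads2, slc25a1b and lpin1 with the length slope (0.0752 to 0.185). In SCO PCB40 against SCO Control slc25a1b was called higher (0.45, SE 0.11, adjusted p 0.0211), and none of the other 16 was called, where 2.67% of all genes were. That call was not rechecked under other settings or without 1 library.

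Do the 5 genes vary together from embryo to embryo? With each group's mean removed from log2 CPM, 8 of the 10 pairs were correlated over the 36 brains at an adjusted p under 0.05 (permutation test within groups, two-sided, Benjamini-Hochberg over 10 pairs). How many pairs of other genes would pass the same test was not counted, so this count is not shown to be particular to the 5 genes. The enzymes formed the closest pairs. Msmo1 and CYP51 had a Pearson r of 0.801 and a Spearman rho of 0.76, with an adjusted p of 5e-05 for both, from the smallest p that 100000 permutations can give, 1e-05. For msmo1 and sqlea r was 0.787 and rho 0.864, with the same adjusted p. Each r was also taken without the 2 brains farthest from the median in 1 gene of the pair. That gene was hmgcra in all its pairs, sqlea with msmo1 or CYP51, and msmo1 with CYP51 or mid1ip1l. Brains extreme only in the other gene stayed in. Without these 2 brains, r was 0.757 for msmo1 and CYP51 and 0.816 for sqlea and msmo1.

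Hmgcra correlated with msmo1 (r 0.711, rho 0.674, adjusted p 1e-04 and 2e-04, r 0.666 without the 2 farthest), with sqlea (r 0.647, rho 0.605, adjusted p 6.17e-04 and 0.00117, r 0.557) and with CYP51 (r 0.498, rho 0.416, adjusted p 0.00171 and 0.0182, r 0.438). For hmgcra and CYP51 the rho without the 2 farthest, 0.341, did not pass (adjusted p 0.06). Sqlea and CYP51 had an r of 0.503 and a rho of 0.544 (adjusted p 2.75e-04 and 0.001, r 0.511 without the 2 farthest). Over the 18 SCO brains alone r was 0.858 for this pair and 0.695 for hmgcra and CYP51. Over the 18 NBH brains it was 0.288 and 0.33, and neither passed (adjusted p 0.114 and 0.143). Every pair of enzymes had the higher r in SCO, and every pair with mid1ip1l in NBH. The difference between populations was not tested. Mid1ip1l was the loosest member. It correlated with hmgcra (r 0.557, rho 0.646, adjusted p 6.17e-04 and 2e-04, r 0.527) and with msmo1 (r 0.407, rho 0.47, adjusted p 0.0341 and 0.0109). Without the 2 farthest brains its relation with msmo1 did not pass, at r 0.245 and rho 0.375 (adjusted p 0.236 and 0.0531). With CYP51 (r 0.394, rho 0.333, adjusted p 0.0551 and 0.0829) and with sqlea (r 0.22, rho 0.292, adjusted p 0.148 and 0.0829) mid1ip1l did not pass. Within each group of 6 brains r was positive in 10 of 10 pairs in NBH Control, NBH PCB40, NBH PCB400 and SCO Control, in 9 in SCO PCB40 and in 8 in SCO Hg Fed. None of those 60 values passed Benjamini-Hochberg adjustment (exact permutation test, smallest adjusted p 0.084), and 18 had an unadjusted p under 0.05. The median r within a group ran from 0.508 in SCO PCB40 to 0.846 in SCO Hg Fed. Of the 45 correlations of the 5 genes with library measures none passed adjustment (permutation test). Here the 2 farthest brains were those farthest in the library measure. By Pearson 2 were equally close. Hmgcra with the length slope had r -0.44 and rho -0.492 (adjusted p 0.0934 and 0.112, r -0.331 without the 2 farthest). Mid1ip1l with the oligodendrocyte score had r -0.514 and rho -0.439 (adjusted p 0.0934 and 0.168, r -0.443 without the 2 farthest). Brains high in these genes were found in several groups: SCO Control replicate 6 and SCO Hg Fed replicate 5 were the highest of their groups in hmgcra and mid1ip1l.

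**Figure D4:**
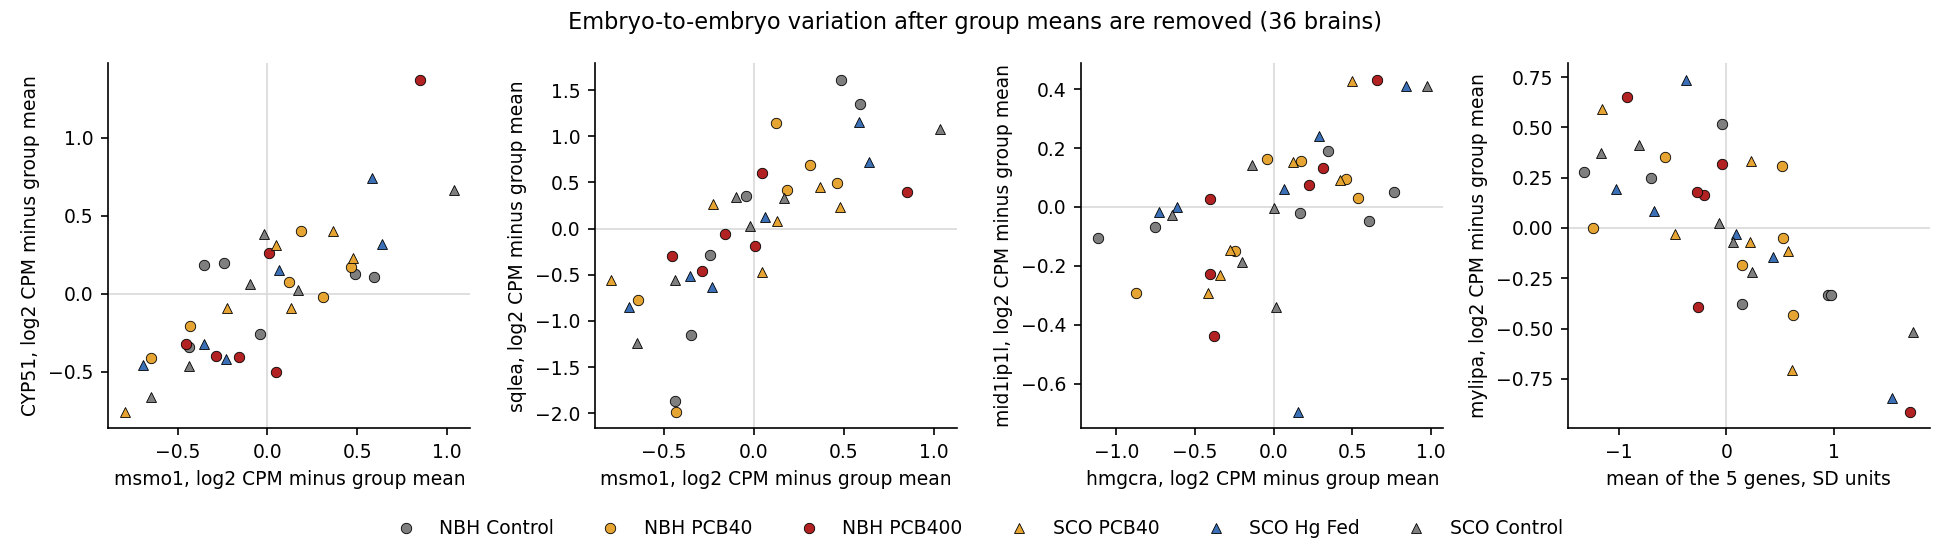
Each symbol is 1 brain, with its group's mean subtracted, for CYP51 against msmo1, sqlea against msmo1, mid1ip1l against hmgcra (all log2 CPM), and mylipa against the mean of the 5 genes in SD units. The first 3 panels slope upward, with r of 0.801, 0.787 and 0.557, and the last slopes downward, with r of -0.749.

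Which other genes followed the 5? The mean of the 5, each scaled to its SD after group means were removed, was correlated with 11622 named genes of at least 1 CPM over the 36 brains. Over these genes the median r was 0 and the 95th percentile 0.503. The 10 with the highest r were idi1 (0.794), hddc2 (0.784), polr2h (0.765), tm7sf2 (0.753), ndufaf4 (0.753), cdk4 (0.751), hacd2 (0.749), ogg1 (0.747), ranbp1 (0.746) and calub (0.745). Idi1 and tm7sf2 are on the sterol synthesis list, and the other 8 are not. Within each library all genes share the same depth and scaling. When the length slope of each library was regressed out, only 3 of the 10 were among the 10 highest. The r of the 10 was then 0.716 to 0.771, so their ranks changed more than their r. Of the regulators, insig1 had an r of 0.596, while srebf1, at 0.235, and srebf2, at 0.071, lay below the 95th percentile. Mylipa had an r of -0.749, the lowest of all 11622 genes, and lpin1 had an r of -0.647. With group means removed, brains with more of the 5 genes thus tended to have less mylipa over the 36 brains together. For mylipa no r was taken per group or without the farthest brains. Among other enzymes of the pathway r was 0.527 for hsd17b7 and 0.51 for sc5d. Below the 95th percentile were acat2 (0.495), mvda (0.487), fdps (0.447), dhcr7 (0.396), mvk (0.274), hmgcs1 (0.265), lbr (0.24), fdft1 (0.147), erg28 (0.113) and pmvk (0.038).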

How the data were processed

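RNA of 36 whole embryo brains had been quantified per transcript. The submitters' processing notes name Salmon 1.3.0 and edgeR 3.30.3, without their roles. The genome build, read trimming and library strandedness are not given in the sources used here. The deposited files hold, per the file headers, estimated counts (NumReads) and TPM for 56244 transcripts as the authors' quantification gave them. All transcripts were matched to 31637 genes through the RefSeq table of assembly MU-UCD_Fhet_4.1, used for names only, and their estimated counts were summed per gene and rounded to whole numbers. TPM were summed likewise, and served only to compare genes.

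Genes with low counts were removed with filterByExpr by group, which left 23292. Counts were scaled with TMM and fitted with the quasi-likelihood test of edgeR 4.0.16 (R 4.3.3, limma 3.58.1) on all 36 libraries, with 1 mean per group and no covariate. Adjusted p-values are Benjamini-Hochberg over all genes tested, two-sided. Standard errors were taken as the absolute log2 fold change over the square root of F, and 95% intervals use 30 degrees of freedom, both approximate. CPM on a log2 scale carry a prior count of 2. Correlations used log2 CPM with group means removed and 100000 permutations within groups. Alternatives were other size factors, no filter, DESeq2 1.42.0, only the compared groups, a replicate block, covariates for length slope and marker scores, and each library left out. The fits with the posterior hox score alone and with neuron and oligodendrocyte scores were not planned. The scripts were tested on simulated data. Figures and summaries were made with Python 3.11.15, numpy 2.4.6, scipy 1.17.1, pandas 2.3.3 and matplotlib 3.10.9.

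The 5 genes, the gene lists and the tests were chosen with earlier results of these data known. Genes named are the 5, any measured gene of the sterol synthesis, regulation and fatty acid lists, and the 10 named genes of at least 1 CPM with the highest correlation with the mean of the 5; mid1ip1a was named outside that rule. The values of 1 gene of the sterol synthesis list, which is in the counts, are not reported here. Libraries of a group correlated at 0.927 to 0.971 over genes, and 0 pairs were identical. Replicate numbers do not pair embryos across groups.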

Additional observations from a re-analysis of the deposited data

Results flagged for a closer look

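In 4 of the 30 sets of 6 values (5 genes in 6 groups), the highest brain stood apart from the other 5 by more of the range than Dixon's 95% criterion for 6 samples allows. For independent, normally distributed values chance marks about 1 in 20 such sets. The 5 genes were measured in the same brains and mostly correlate, so the 30 sets are not independent. The 4 values come from 2 brains. NBH PCB400 replicate 6 had 13.69 CPM of CYP51, with a gap of 0.737 of the range, and 23.45 CPM of msmo1, with a gap of 0.719. The same brain had 44.5 CPM of CYP1A, the lowest of its group, and the only posterior hox score of its group above 0, at 2.44. SCO Control replicate 6 had 32.51 CPM of hmgcra, with a gap of 0.72, and 52.66 CPM of msmo1, with a gap of 0.656. SCO Control replicate 6 was the highest of its group in each of the 5 genes, mid1ip1l at 624.1 CPM included.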

How the results depend on the processing

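All 5 genes were called in NBH PCB400 against NBH Control with other size factors, no filter, DESeq2, only the compared groups, a replicate block, removal of the length trend, and neuron and oligodendrocyte scores, 4 with the length slope, 3 with the posterior hox score and 1 with tissue scores (muscle, pituitary and hox). The replicate block, which rests on numbers that do not pair embryos, gave 1039 genes called in that comparison and 1 in SCO Hg Fed against SCO Control. Between NBH PCB400 and NBH PCB40 2 of the 5 were called with the length slope, and 2 to 5 without 1 library. In NBH Control against SCO Control 0 of the 5 were called with the length slope, the length trend removed, or any of the marker scores, and 0 to 2 without 1 library. Of the members' fold changes, 308 of 350 under other settings and 421 of 480 without 1 library kept direction and side of the threshold. Correlated pairs by Pearson numbered 8 of 10 with other size factors or tissue scores regressed out. They numbered 7 by TPM or with the length slope regressed out, and 6 over NBH or SCO brains alone.

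Over all genes, DESeq2 called 1565 (NBH PCB400 against NBH Control), 18 (NBH PCB40 against NBH Control), 1593 (NBH PCB400 against NBH PCB40), 1303 (SCO PCB40 against SCO Control), 77 (SCO Hg Fed against SCO Control) and 76 (PCB40 response, NBH against SCO). Between NBH PCB400 and NBH Control the count was 498 with the length slope, 48 with tissue scores, 57 with the hox score and 2120 with neuron and oligodendrocyte scores. In NBH PCB400 against NBH PCB40 it was 126 with only the compared groups, then 371, 520, 382 and 1961 in that order of covariates. In SCO PCB40 against SCO Control it was 98 with only the compared groups, 149 with tissue scores and 309 with neuron and oligodendrocyte scores. In SCO Hg Fed against SCO Control it was 4 with other size factors, 6 with no filter, 11 with the length slope, 5 with the length trend removed and 3 with neuron and oligodendrocyte scores. In NBH Control against SCO Control it was 6270 with only the compared groups, 538 with the length slope, 892 with tissue scores, 2442 with the hox score and 157 with neuron and oligodendrocyte scores. For the PCB40 response it was 2, 1, 2 and 7 with only the compared groups, tissue, hox, and neuron and oligodendrocyte scores. Without 1 library the counts ran from 195 to 1359, 0 to 1, 97 to 2594, 247 to 1470, 0 to 7 and, for the PCB40 response, 2 to 30, in the order of the DESeq2 counts. Between NBH PCB400 and NBH Control the lowest count was without NBH PCB400 replicate 2 and the highest without replicate 6.

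Signs that turned were all of uncalled values. In the PCB40 response they were sqlea (0.098 with the replicate block, 0.109 length slope, 0.078 hox, 0.077 neuron and oligodendrocyte), hmgcra (0.089 length slope), msmo1 (0.045 length slope, 0.029 hox) and CYP51 (0.048 length trend, 0.048 tissue, 0.111 hox). In SCO PCB40 against SCO Control they were hmgcra (-0.224 length slope, -0.043 tissue, -0.299 neuron and oligodendrocyte), mid1ip1l (-0.083 length slope, -0.078 length trend, -0.122 neuron and oligodendrocyte) and msmo1 (0.017 tissue). In SCO Hg Fed against SCO Control they were msmo1 (-0.12 tissue, -0.052 hox, -0.056 neuron and oligodendrocyte) and hmgcra (-0.061 neuron and oligodendrocyte), and in NBH Control against SCO Control hmgcra (-0.239 length slope, -0.151 neuron and oligodendrocyte). Without 1 library, hmgcra ran from -0.279 to 0.041 in NBH PCB40 against NBH Control, sqlea from -0.666 to 0.009 in NBH Control against SCO Control, and the PCB40 response from -0.294 to 0.381 (sqlea), -0.375 to 0.048 (msmo1) and -0.193 to 0.074 (CYP51). In SCO PCB40 against SCO Control hmgcra ran from -0.038 to 0.341, msmo1 from -0.208 to 0.193 and mid1ip1l from -0.033 to 0.159. In SCO Hg Fed against SCO Control hmgcra ran from -0.034 to 0.441, sqlea from -0.507 to 0.08, msmo1 from -0.106 to 0.325 and CYP51 from -0.304 to 0.034. The causes were not tested. Sqlea, at 19 reads in its lowest library, is the gene that depth limits most.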

Other observations

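Of the 10 sterol regulators tested in NBH Control against SCO Control, 2 were called higher and 3 lower by edgeR, where 7.33% of all genes were called higher and 10% lower. Srebf2, the gene of SREBP2, stood at -1.11 on the log2 scale and the liver X receptor gene nr1h3 at -0.68, both called in all 12 fits that left out 1 brain. Marchf6, a ubiquitin ligase that acts on squalene epoxidase in mammals, stood at 0.64. The libraries of the populations differ in length slope, and with that slope as a covariate none of the 3 was called: srebf2 stood at -0.36 (adjusted p 0.524), nr1h3 at -0.39 (adjusted p 0.0652) and marchf6 at 0.38 (adjusted p 0.235).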
